A study of Mus musculus with 16 samples.

Results

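Voltage-gated calcium channels open when a neuron depolarises and let calcium into the cell, and each channel is built around a single large pore subunit. Pore genes fall into the L-type or Cav1 class (Cacna1c, Cacna1d), the Cav2 class that triggers transmitter release (Cacna1a of P/Q-type, Cacna1b of N-type and Cacna1e of R-type channels) and the T-type or Cav3 class, which opens near the resting potential (Cacna1g, Cacna1h, Cacna1i). In dorsal root ganglia the N-type channel is known for release from the central endings of pain-sensing neurons and the T-type channel Cav3.2 for tuning their excitability.

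The 8 genes named above were taken by symbol from all 16 deposited tables, where each had 1 entry per table among 53379 gene IDs. The other 2 pore genes of the family, Cacna1f and Cacna1s, were kept as a comparison. Libraries came from dorsal root ganglia of naive littermate mice of both sexes, 8 to 12 weeks of age. All mice carried Cre under the Scn10a (Nav1.8) promoter and the Cre-dependent Rosa26fstrap allele on C57BL/6J, which puts an EGFP-tagged ribosomal protein L10a into Nav1.8-expressing neurons. Ganglia of 3 mice of one sex made a pool, and each of 4 female and 4 male pools gave a library of whole-ganglion RNA (IN) and one of RNA pulled down with anti-GFP antibodies on the tagged ribosomes (IP). IN holds RNA of every neuron and non-neuronal cell of the ganglion, and Nav1.8-Cre is known to act in touch neurons as well as in nociceptors. IP against IN therefore compares ribosome-bound RNA pulled down from tagged neurons with whole-ganglion RNA of a mixture that contains them.

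Levels are TPM, transcript abundance per length as a part of the library's total, divided by a scaling factor per library (0.375 to 0.532 for IN, 1.65 to 2.69 for IP), because the part of the total held by nuclear protein-coding genes differed between the fractions. The depth behind each value is unknown, since TPM keep no read counts. Nuclear protein-coding genes held 9.59% to 13.3% of TPM in IN and 44.9% to 79.5% in IP, lowest in the IP of female pool 2. Scn10a, the gene whose promoter drives Cre, was at 108 to 143 in IN and 282 to 444 in IP, lowest there in female pool 2. All 8 nociceptor markers were higher in IP and all 8 markers of large-diameter and other A-fibre low-threshold neurons were lower. The markers of satellite glia (5 of 5), Schwann cells (5 of 5), endothelium (4 of 4), skeletal muscle (4 of 4), fibroblasts (3 of 3) and macrophages (3 of 3) were all lower in IP, as were 5 of 6 for vascular smooth muscle and pericytes, with the sixth not tested, and all 4 of C-fibre touch neurons were higher. Higher and lower mean past an adjusted p of 0.05 in limma's test of IP against IN. Over all genes tested 40.5% were higher and 38.9% lower, so such a call is common. No marker of any list was at 0 in any library, so RNA of the non-neuronal marker genes was present in every IP library. The cells it came from were not tested.

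RefSeq promoter windows (GRCm38.p6) were at hand for 5 of the 8 genes. With the scaling used here, Cacna1b and Cacna1c rose most of the 8 genes in IP, and Cacna1d fell. For these genes the 250 bases before the start are printed, as the windows with the most GGGCGG matches of each gene. All run 5′ to 3′ on the gene's strand, the minus strand in each case, and capitals mark GGGCGG on either strand. Cacna1c had 3 windows and Cacna1d had 2. The TPM of a gene do not tell which start was in use. The windows lie at chr2:24763153-24763402 (Cacna1b), chr6:119108496-119108745 (Cacna1c) and chr14:30353487-30353736 (Cacna1d).
Cacna1b: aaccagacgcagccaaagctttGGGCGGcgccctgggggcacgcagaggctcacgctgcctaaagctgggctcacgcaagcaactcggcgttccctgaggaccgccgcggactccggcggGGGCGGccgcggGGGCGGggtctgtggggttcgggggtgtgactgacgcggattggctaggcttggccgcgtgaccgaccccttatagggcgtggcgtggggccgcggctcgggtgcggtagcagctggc
Cacna1c: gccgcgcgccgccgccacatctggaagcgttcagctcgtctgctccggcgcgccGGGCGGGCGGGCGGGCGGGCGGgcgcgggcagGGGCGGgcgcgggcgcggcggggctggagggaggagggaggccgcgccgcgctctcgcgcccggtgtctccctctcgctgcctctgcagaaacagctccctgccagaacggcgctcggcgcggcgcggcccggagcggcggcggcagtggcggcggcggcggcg
Cacna1d: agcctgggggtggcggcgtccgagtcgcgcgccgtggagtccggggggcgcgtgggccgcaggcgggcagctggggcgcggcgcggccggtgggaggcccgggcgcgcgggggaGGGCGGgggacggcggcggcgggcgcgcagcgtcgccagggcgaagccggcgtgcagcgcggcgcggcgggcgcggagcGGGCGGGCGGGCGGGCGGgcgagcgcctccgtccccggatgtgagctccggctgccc

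Counting overlapping matches on both strands, these windows hold 3, 6 and 5 GGGCGG matches, and 32.7% of all 32851 windows of this length hold at least 1. Their GC content is 72.0%, 82.8% and 86.4%, against a median of 52.4% over all windows. These windows were picked for their matches to a motif of G and C only. Neither the number of matches nor the GC content is thus a comparison between genes or with all windows. The other 2 windows of Cacna1c, the other window of Cacna1d and the windows of Cacna1e and Cacna1i hold 0. Their GC content is 51.6% and 50.4% (Cacna1c), 39.6% (Cacna1d), 52.0% (Cacna1e) and 62.4% (Cacna1i). CCAAT (either strand) occurs 1 time in the Cacna1b window, where 33.8% of windows have it, and not in the other windows printed. A match is a description of the letters only.

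The genes are long (GRCm38, coordinates of the deposited files). Cacna1b spans chromosome 2, 24603887 to 24763152, and Cacna1c spans chromosome 6, 118587240 to 119196418, the largest of the 8 at 609 kb. Cacna1a lies at chromosome 8, 84388440 to 84640246, Cacna1d at chromosome 14, 30039939 to 30491455, and Cacna1e at chromosome 1, 154390731 to 154884501. The T-type genes are shorter, Cacna1g at chromosome 11, 94408391 to 94474198, Cacna1h at chromosome 17, 25374285 to 25433783 (59.5 kb), and Cacna1i at chromosome 15, 80287238 to 80398279. Longest coding sequences were alike at 6.54 to 7.14 kb. In GENCODE M21, exons of Cacna1d share up to 589 bases with Chdh, a choline dehydrogenase gene on the opposite strand, which was at 4.10 in IN and 0.561 in IP. How strand was handled in counting is not stated in the labels, so reads of that stretch may belong to either gene. Exons of Cacna1a overlap the antisense Gm16183 by 227 bases and those of Cacna1h overlap Tpsg1 by 158 bases, and both partners were at or near 0.

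Cacna1b was the most abundant pore transcript in both fractions, at 32.8 ± 5.75 scaled TPM in IN and 59.7 ± 6.67 in IP (SD, n = 8 each). In IN it was followed by Cacna1a (25.0 ± 1.65), Cacna1c (15.3 ± 2.03) and Cacna1h (13.9 ± 2.01). Cacna1e (3.98 ± 0.654), Cacna1d (3.36 ± 0.204), Cacna1g (2.77 ± 0.516) and Cacna1i (2.36 ± 0.794) came after these. Cacna1b was above Cacna1a in 8 of 8 IN libraries although their ranges overlapped. Cacna1c and Cacna1h were not separated in IN (Cacna1c higher in 6 of 8). Neighbours among the 4 lowest genes also had ranges that overlapped, with the higher gene above the next in 7 of 8 libraries for each pair. In IP, Cacna1c (26.9 ± 2.56) moved above Cacna1a (22.2 ± 2.45) and was higher in 8 of 8 libraries, although their ranges overlapped. Cacna1h (11.5 ± 1.66), Cacna1e (4.92 ± 0.506), Cacna1i (3.67 ± 1.16), Cacna1d (1.57 ± 0.346) and Cacna1g (0.385 ± 0.28) followed in IP, where only Cacna1e and Cacna1i, besides Cacna1c and Cacna1a, overlapped as neighbours. Female and male pools gave the same order in IP.

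**Figure D1:**
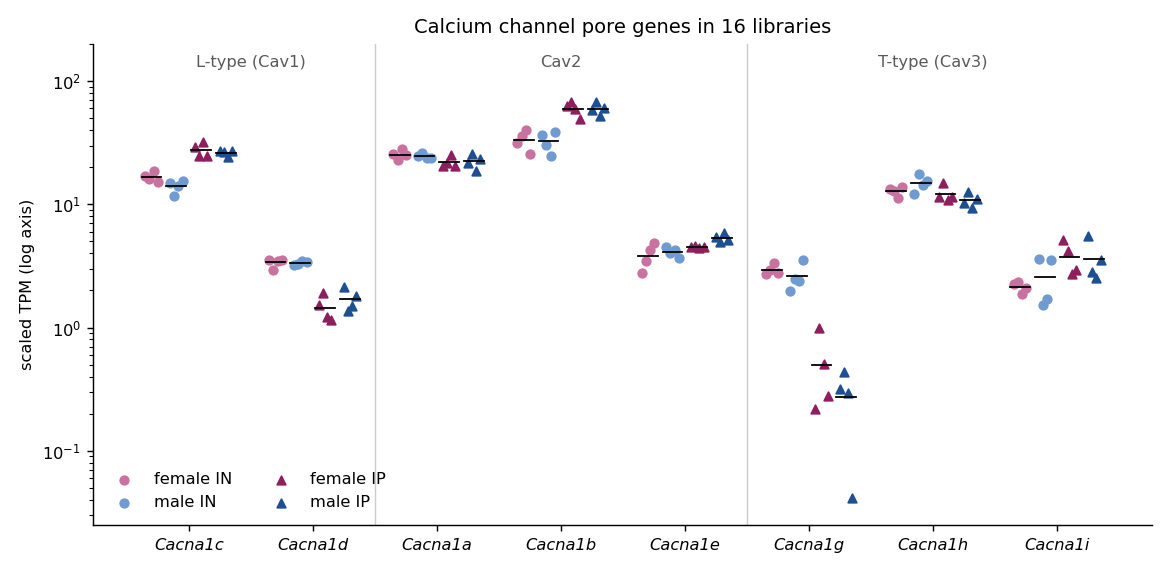
Scaled TPM (log axis) of each pore gene in the 4 female and 4 male libraries of IN (circles) and IP (triangles), grouped by class, with lines at group means. Cacna1b and Cacna1c stand higher in every IP library than in any IN library, and Cacna1d and Cacna1g lower.

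Set against whole-ganglion RNA, each class of channel split in the ribosome-bound RNA. Cacna1b, Cacna1c, Cacna1i and Cacna1e were higher in IP and Cacna1g, Cacna1d, Cacna1h and Cacna1a were lower, so 4 of 8 rose and 4 of 8 fell at an adjusted p under 0.05 (limma's moderated test on log2 of scaled TPM with 1 added, pool as a block, Benjamini-Hochberg over 16099 genes). Of all genes tested 79.4% passed in this comparison, 40.5% higher and 38.9% lower, so a call by itself is common here and the sizes say more. The median log2 change of the 8 genes was 0.04, beside 0.02 over all genes tested. In these bulk libraries, fewer cells of a type, less RNA per cell and less of that RNA on ribosomes cannot be told apart. These directions are set against the median gene. Without scaling, the median gene's deposited TPM rose by 1.84 on the log2 scale. On that scale 94.0% of the genes called were higher, against 51.0% after scaling, and Cacna1a (2.02), Cacna1d (0.82) and Cacna1h (1.86) then had positive values while Cacna1g stayed negative (-0.37). Scaled to the total of nuclear protein-coding genes, 35.1% of the genes called were higher, and with quantile normalization 61.1% were. With no filter on low values, 32.8% were. Shares within a library, given further on, do not depend on this choice.

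Cacna1b, the N-type pore, was at 31.5, 35.7, 39.8 and 25.4 in IN of female pools 1 to 4. In IN of male pools 1 to 4 it was at 36.3, 30.5, 24.6 and 38.4. In IP it was at 63.1, 67.6, 59.6 and 49.0 (female) and at 57.7, 67.8, 52.4 and 60.5 (male). Every IP library was above every IN library, and the pool changes ran from 0.57 to 1.13 on the log2 scale. The fitted change was 0.86 ± 0.07 (SE, adjusted p = 1.1e-06), or 1.82 times by the ratio of means. Of the genes tested, 5.57% had a larger change. Scn10a itself rose by 1.60 ± 0.08 and the nociceptor markers by a median of 1.56. The order of the rises among pore genes depends on the scaling. With quantile normalization the Cacna1b change was 0.601, and Cacna1i (0.877), Cacna1c (0.709) and Cacna1e (0.604) rose by more.

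Cacna1c, the Cav1.2 pore of L-type channels, was at 16.9, 16.1, 18.5 and 15.2 in IN of the 4 female pools. The male IN libraries gave 14.8, 11.6, 14.1 and 15.4. In IP it was at 29.2, 24.6, 31.8 and 24.6 (female) and at 27.2, 26.7, 24.4 and 26.9 (male). The fractions did not overlap, as was so for IP above IN in 22.4% of all genes tested. The change was 0.78 ± 0.06 (adjusted p = 5.9e-07), 1.76 times by the ratio of means, and 7.35% of genes had a larger one. Cacna1c is also known from smooth and heart muscle. Markers of vascular smooth muscle and pericytes had a summed level of 75.4 to 82.9 in IN and 31.98 to 44.1 in IP, and their part in the Cacna1c level was not tested. Cacna1c was lowest against its group in the IN of male pool 2, whose log2 change of 1.14 was the highest of the 8 pools.

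Cacna1d, the other L-type pore, known for opening at less depolarised potentials, went down. It was at 2.95 to 3.55 in the 8 IN libraries (median 3.45) and at 1.15 to 2.12 in the 8 IP libraries (median 1.51), with no overlap. Ranges with IP wholly below IN were seen for 26.0% of genes tested. The change was -0.77 ± 0.08 (adjusted p = 8.1e-06), 0.468 times by the ratio of means, and lower in 8 of 8 pools. With quantile normalization it was -0.327 (limma adjusted p = 0.0023). Chdh, whose exons overlap those of Cacna1d, was also lower in IP (4.10 in IN, 0.561 in IP). Its part in the Cacna1d level was not tested. The L-type class thus held the gene with the second largest rise and the gene with the second largest fall among the 8, and their ratio of levels moved from 4.56 in IN to 17.1 in IP.

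Cacna1a, the P/Q-type pore, changed little with the scaling used here. It ran from 22.7 to 28.2 in IN (median 24.9) and from 18.6 to 25.7 in IP (median 21.6), ranges that overlap. It was lower in IP in 8 of 8 pools by a small amount (-0.17 ± 0.05, adjusted p = 0.0074), and 5 of the 8 genes had the same sign in every pool, where 66.2% of all genes did. The Cacna1a change was -0.27 with quantile normalization (limma adjusted p = 0.00023). Scaled to the total of nuclear protein-coding genes it was -0.40 (limma adjusted p = 5.2e-05). Cacna1e, the R-type pore, ran from 2.76 to 4.86 in IN and from 4.403 to 5.80 in IP and was higher in 7 of 8 pools (0.26 ± 0.07, adjusted p = 0.0064). Scaled to the total of nuclear protein-coding genes the Cacna1e change was 0.07 (adjusted p = 0.44), and with quantile normalization 0.60 (limma adjusted p = 2.6e-05). That call and its size so depend on the scaling.

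Cacna1g, the Cav3.1 T-type pore, had the largest fall of the 8. Its scaled TPM were 2.72, 2.94, 3.36 and 2.77 in the female IN libraries. In the male ones they were 1.99, 2.48, 2.37 and 3.56. In IP they were 0.217, 0.984, 0.507 and 0.278 (female) and 0.317, 0.437, 0.297 and 0.041 (male). All IP libraries lay below all IN libraries, and the IP mean was 0.139 times the IN mean. The fitted change was -1.46 ± 0.11 with 1 added (adjusted p = 6.3e-07) and -2.75 with 0.1 added, which shows how far the added constant shrinks the change of a transcript near 1. The IP level was highest in female pool 2, the library in which the summed markers of satellite glia (270), Schwann cells (976), endothelium (7.0), fibroblasts (125) and macrophages (6.53) were also highest of all IP libraries. Their part in the Cacna1g level was not tested. Without that pool the change was -1.52.

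Cacna1h, the Cav3.2 T-type pore and the most abundant of its class, ran from 11.3 to 17.8 in IN (median 13.6) and from 9.37 to 14.9 in IP (median 11.2), so the fractions overlapped. The change was small (-0.25 ± 0.08, adjusted p = 0.015), with 7 of 8 pools lower, and without female pool 2, the pool that went up (0.20), it was -0.32. Cacna1h is known for high levels in A-fibre touch neurons of the D-hair type. The 8 markers of large-diameter and other A-fibre low-threshold neurons summed to 445.9 to 541.6 in IN and 160.9 to 275.8 in IP, and their part in the Cacna1h level was not tested. Cacna1i, the Cav3.3 pore, ran from 1.52 to 3.61 in IN and from 2.53 to 5.54 in IP and was higher in 7 of 8 pools, with male pool 4 at 0.00. Its change was 0.47 ± 0.09 (adjusted p = 0.00055), or 1.56 times by the ratio of means. The T-type class so held a gene that rose, a gene that fell little and the gene that fell most.

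**Figure D2:**
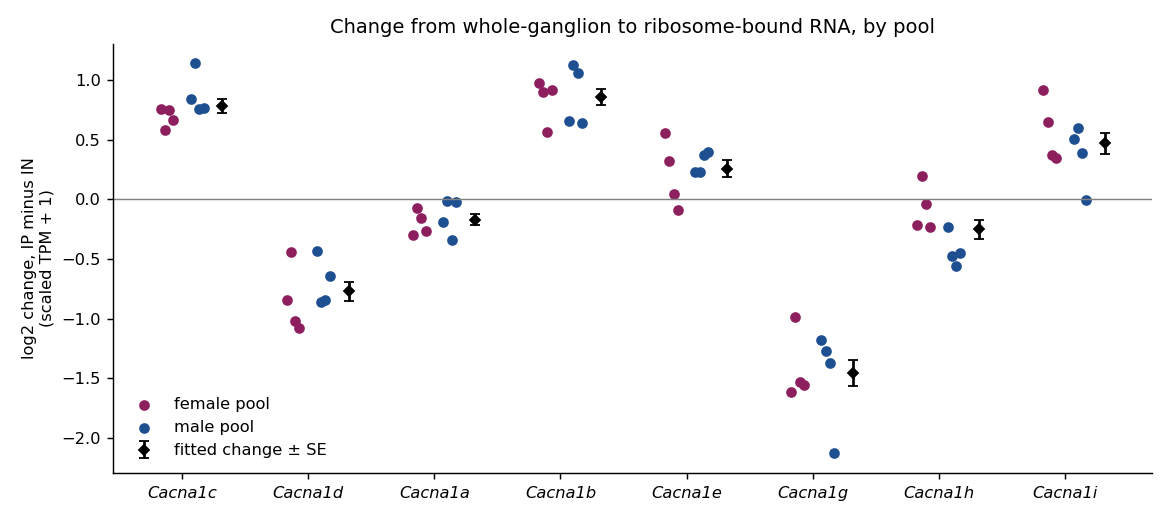
Log2 change from IN to IP (scaled TPM with 1 added) of each pore gene in the 4 female and 4 male pools, with the fitted change and its SE as a black diamond. Cacna1c and Cacna1b are above 0 and Cacna1d, Cacna1a and Cacna1g below 0 in all 8 pools, and Cacna1e, Cacna1h and Cacna1i each have 1 pool on the other side of 0.

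Shares of the summed TPM of the 8 genes within a library do not depend on scaling between libraries. The Cav2 class held 61.99% ± 2.14 of this sum in IN and 66.3% ± 1.54 in IP (SD, n = 8 pools), higher in 8 of 8 pools. The T-type class went from 19.2% ± 2.36 to 11.9% ± 1.35, lower in 8 of 8 pools. Both differences had an exact permutation p = 0.00781 over sign flips of the pool differences, two-sided, the smallest that 8 pools can give, and an adjusted p of 0.0117 over the 3 classes. The L-type class went from 18.8% ± 1.81 to 21.8% ± 1.73 and was higher in 7 of 8 pools (exact permutation p = 0.0156, adjusted p = 0.0156). Its exception was female pool 2, at 19.2% in IN and 18.9% in IP. When shares were taken of log2 values the L-type difference was 0.31 points (adjusted p = 0.391). Without Cacna1b, the gene with the largest share, the Cav2 class was lower in IP by 5.36 points, so its rise rests on that gene.

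By gene, Cacna1b went from 32.8% ± 3.70 of the sum in IN to 45.5% ± 1.88 in IP, and Cacna1c from 15.4% ± 1.71 to 20.6% ± 1.79. Cacna1a went from 25.2% ± 1.82 to 17.0% ± 1.29 and Cacna1h from 14.1% ± 2.49 to 8.78% ± 1.01. Cacna1d (3.40% to 1.20%) and Cacna1g (2.78% to 0.290%) also lost share. These 6 genes moved the same way in 8 of 8 pools (exact permutation p = 0.00781 for each, adjusted p = 0.0104 over the 8 genes). Cacna1e held 4.03% in IN and 3.796% in IP (exact permutation p = 0.328) and Cacna1i 2.36% and 2.80% (exact permutation p = 0.0703, adjusted p = 0.0804), neither past 0.05. Shares add to 100, so a gain of 1 gene lowers the others.

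**Figure D3:**
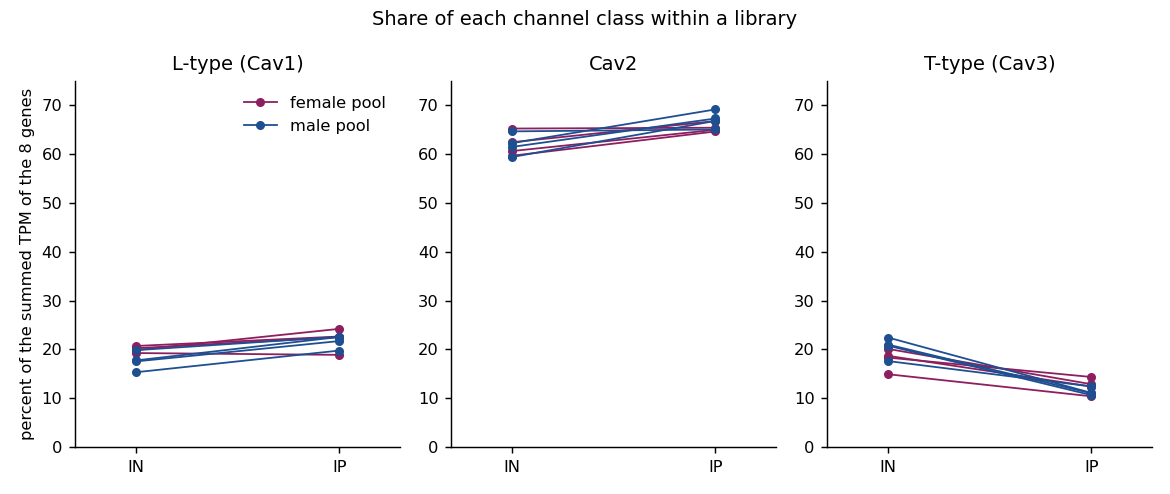
Percent of the summed TPM of the 8 pore genes held by each class, with a line per pool from its IN to its IP library. The T-type share falls in all 8 pools, the Cav2 share rises in all 8, and the L-type share rises in 7 of 8.

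The comparison was repeated in each sex. In female pools 3 of the 8 genes rose and 3 fell, where 32.5% of genes tested were higher and 33.6% lower (66.1% in all). In male pools 4 rose and 3 fell, where 35.4% were higher and 34.8% lower (70.2% in all). Cacna1b changed by 0.84 ± 0.09 (female) and 0.87 ± 0.11 (male), Cacna1c by 0.69 ± 0.06 and 0.88 ± 0.08, Cacna1d by -0.85 ± 0.12 and -0.70 ± 0.10, and Cacna1g by -1.42 ± 0.12 and -1.49 ± 0.16. All of these passed in both sexes. Without male pool 4, Cacna1g fell under the filter of 1 TPM in the male pools and was not tested there. Cacna1h was at -0.43 ± 0.08 in male pools (limma adjusted p = 0.0027, lower in 4 of 4) and at -0.07 ± 0.09 in female pools (adjusted p = 0.52). Cacna1e had 0.31 ± 0.07 in males (adjusted p = 0.009) and 0.21 ± 0.12 in females (adjusted p = 0.19).

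Other calls within a sex were less stable. Cacna1a was at -0.20 ± 0.07 in female pools (limma adjusted p = 0.044) and no longer passed when pairing was dropped (adjusted p = 0.082), nor when female pool 1 (0.18), 3 (0.11) or 4 (0.13) was left out. In male pools it was at -0.14 ± 0.08 (adjusted p = 0.14). Cacna1i had a change of 0.57 ± 0.12 in females (adjusted p = 0.0073) and 0.37 ± 0.11 in males (adjusted p = 0.024). The male call was lost when pairing was dropped (adjusted p = 0.23) and without male pool 1 (0.087), 2 (0.078) or 3 (0.075). Without the low-value filter it was also lost (0.056), and scaled to nuclear protein-coding genes (0.18). On that scale the male Cacna1e call was lost as well (0.25) and Cacna1a passed (-0.38, adjusted p = 0.0053), as it did with quantile normalization (-0.25, adjusted p = 0.017). Quantile normalization brought female Cacna1e past the threshold (0.56, adjusted p = 0.0092) and ended the male Cacna1d call (-0.24, adjusted p = 0.078). The female and male values of a gene were not shown to differ by these calls alone, so the difference was tested.

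No pore gene differed between female and male pools in IN (0 of 8), in IP (0 of 7 tested, Cacna1g being under the filter there) or in the change from IN to IP (0 of 8) by limma's moderated test at an adjusted p of 0.05. At an unadjusted p under 0.05 there was 1 gene in each. No share over all genes at that unadjusted level is at hand, so this count is not read as a result. At the adjusted threshold 0.0824% of all genes passed in IN (0.0300% higher in females, 0.0525% lower) and 0.0507% in IP (0.0190% higher, 0.0317% lower). For the interaction 0.0186% passed, so few genes of any kind did. No pore gene had scaled TPM of female and male libraries apart in IN, where 1.33% of genes had all females higher and 1.54% all females lower. Cacna1c in IN averaged 16.7 ± 1.39 in females and 13.95 ± 1.68 in males (SD, n = 4 each), a log2 difference of 0.24 with a 95% interval of 0.03 to 0.46 and an adjusted p of 0.96 in limma. Without male pool 2 that difference was 0.16. In IP it was 0.06, with an interval of -0.17 to 0.28. Cacna1e in IP averaged 4.51 ± 0.0776 in females and 5.33 ± 0.383 in males, and the 4 female libraries lay below the 4 male ones, as for 0.856% of genes tested (0.811% had all females higher). The difference was -0.20 (interval -0.36 to -0.03, limma adjusted p = 1).

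Cacna1h had the largest interaction of the 8, since its fall in IP was 0.36 smaller in female pools on the log2 scale (interval 0.08 to 0.63, unadjusted p = 0.0165 and adjusted p = 1 in limma). In IP it was at 11.4, 14.9, 10.9 and 11.5 in females and at 10.3, 12.5, 9.37 and 10.98 in males, so the sexes overlapped. Without female pool 2 the interaction was 0.27, and with deposited TPM it was 0.11. For the other 7 genes the interaction lay between -0.19 (Cacna1c) and 0.20 (Cacna1i), each with an interval that includes 0. For Cacna1b the interval was -0.36 to 0.30 and for Cacna1g -0.45 to 0.58. Differences between the sexes within these intervals are not excluded by 4 pools each. Class shares did not pass in any comparison of the sexes, in which the smallest p that 4 against 4 can give is 0.0286. The L-type share in IN was closest, 20.0% ± 0.614 in females and 17.6% ± 1.85 in males (exact permutation p = 0.0571, adjusted p = 0.171). Among shares of single genes, that of Cacna1c in IN was 16.6% ± 0.385 in females and 14.2% ± 1.65 in males. Its 4 female libraries (16.27% to 17.1%) lay above its 4 male libraries (11.9% to 15.9%), with an exact permutation p = 0.0286 and an adjusted p = 0.229 over the 8 genes. No other gene share reached an unadjusted p of 0.05 between the sexes.

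**Figure D4:**
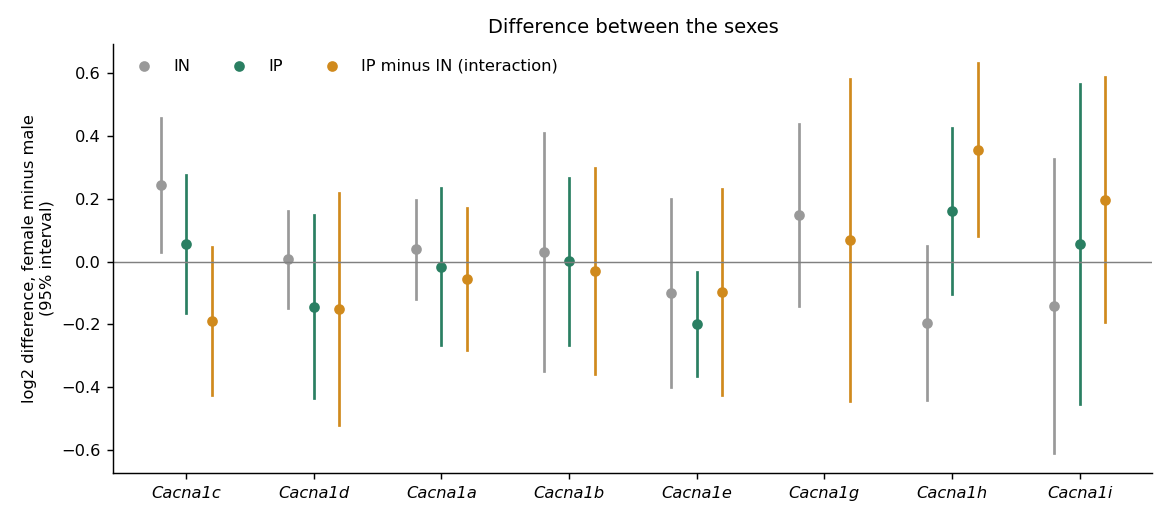
Female minus male log2 difference of each pore gene in IN, in IP and in the change from IN to IP, as a point with its 95% interval. Intervals leave out 0 for Cacna1c in IN, Cacna1e in IP and the Cacna1h interaction, none of which passed the adjusted threshold, and Cacna1g was not tested in IP.

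The 2 further pore genes of the family were not tested at the filter of 1 TPM. Cacna1s, the skeletal muscle L-type pore, was at 0.418 to 2.90 in IN and 0.0532 to 0.858 in IP. Skeletal muscle markers were present too, at a summed level of 24.6 to 267 in IN and 2.44 to 111 in IP, and their part in the Cacna1s level was not tested. In IN the male pool 3 library was highest in both, and in IP the female pool 2 library was. Cacna1f, the retinal L-type pore, was listed at 0 in 15 of 16 libraries.

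Beta subunits carry L-type and Cav2 pores to the membrane, and alpha2delta subunits raise the number of channels there. Of 16 genes for these and for proteins named gamma subunits 11 were tested, of which 4 rose and 5 fell in IP (median log2 -0.00, against 0.02 over all genes). Gamma genes were listed by name, and their part in calcium channels was not tested. Over all genes tested 40.5% were higher and 38.9% lower, the shares to set beside the counts of this list and the next. Cacnb3, the beta subunit often paired with N-type channels, rose from 57.8 ± 4.18 to 127 ± 10.6 (1.13 ± 0.06), more than any pore gene. Cacnb1 rose by 0.94 ± 0.06, while Cacng5, of the gamma genes, changed by -1.47 and Cacnb2 by -0.73. Regulators of the channels gave 12 higher and 6 lower of 19 tested (median 0.29). Stac, an adaptor of L-type channels, rose most (1.39 ± 0.05) and the calmodulin gene Calm2 rose by 0.81, whereas the receptor gene Lrp1 changed by -1.86 and the ubiquitin ligase gene Wwp1 by -1.53.

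Genes of the presynaptic release machinery that Cav2 channels feed gave 10 higher and 7 lower of 20 (median log2 0.13). For each list here, the shares over all genes tested were 40.5% higher and 38.9% lower. The calcium sensor gene Syt7 rose by 1.37 and the syntaxin gene Stx1a by 1.05, while the active zone gene Rimbp2 changed by -1.12 and the synaptobrevin gene Vamp1 by -0.885. Of 7 tested genes of calcium-activated potassium channels, which calcium entry opens, 4 rose and 1 fell (median 0.26). Kcnmb1 (1.40 ± 0.06) and Kcnn1 (1.15 ± 0.05) were highest, Kcnn4 fell by 1.32 and Kcnma1 did not pass (-0.07, adjusted p = 0.18 in limma). Of 21 genes of calcium stores, store-operated entry and extrusion, 7 were higher and 12 lower (median -0.48). Atp2a1, a calcium pump of skeletal muscle, changed by -2.56 and the store release channel gene Itpr1 by -2.06. The plasma membrane pump gene Atp2b4 rose by 0.54 and the entry channel gene Orai3 by 0.50. No gene of these lists passed in limma in either comparison of the sexes or in the interaction.

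**Figure D5:**
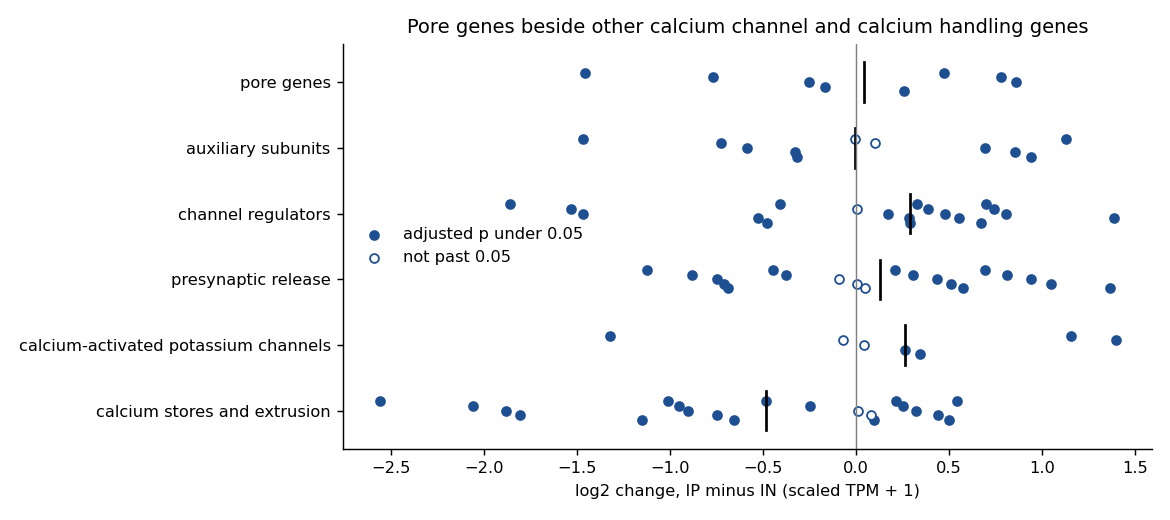
Log2 change from IN to IP of the 8 pore genes and of the tested genes of 5 lists of related genes, with filled points past an adjusted p of 0.05 and a black line at the median. Pore genes spread on both sides of 0 from -1.46 to 0.86, and the list of calcium stores and extrusion has the lowest median (-0.48).

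Likeness of pattern was measured as Pearson's r over the 16 libraries on log2 values, as a description, since these share pools and the step from IN to IP drives most of it. Cacna1c was most like Rasgef1a (0.99), the pacemaker channel gene Hcn3 (0.98) and Cacna2d2 (0.98), an alpha2delta subunit gene. Cacna1b was most like the peptide receptor gene Npy2r (0.97), the itch peptide gene Nppb (0.95) and Stoml2 (0.95). Cacna1d was most like Slitrk3, Phactr2 and Acsl6 (0.98 each). Cacna1g was most like the matrix genes Smoc2 (0.99, from 44.3 in IN to 4.63 in IP) and Lama4 (0.98) and the antigen presentation gene H2-Aa (0.98). The cells that the RNA of these genes came from were not tested.

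The other members had looser matches. Cacna1h was most like the caveolin gene Cav1 (0.95, from 20.0 in IN to 9.80 in IP), followed by Fbxo7 and Herc4 (0.82 each). Cacna1a was most like Ggnbp2 (0.86), the transcription factor gene Klf7 (0.84) and Dzank1 (0.83). Cacna1e was most like Stmn4, Prkce and Stx7 (0.82 to 0.83), and Cacna1i was most like the ribosomal protein genes Rpl23 (0.83) and Rps3 (0.80) and the kinase gene Jak1 (0.80). Among pairs of pore genes within a fraction (28 pairs, 8 libraries each), r ran from -0.83 (Cacna1c and Cacna1h) to 0.53 in IN and from -0.62 (Cacna1e and Cacna1h) to 0.71 (Cacna1d and Cacna1i) in IP. The Cacna1c and Cacna1h libraries in IN include both sexes, whose means differ in opposite directions for these genes.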

How the data were processed

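The submitters' processing notes name FastQC, STAR 2.2.1, StringTie 1.3.5 and GRCm38.p5, with ribosomal RNA depleted per the labels. Neither an annotation release nor a strand setting was given in the sources used here. For each gene the authors deposited 1 value, taken to be TPM since each library sums to 1000000. The files carry only a stray header line that ends in Coverage. Entries of one gene ID were summed (17 to 21 per library), which left 53379 IDs besides 92 ERCC entries. Gene types and exons came from GENCODE M21.

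Genes entered a fit at a mean TPM of 1 or more in its IN or in its IP libraries. Each library was divided by 1 factor, the median ratio of its genes to their geometric means (16099 genes, 16 libraries), and log2 taken after adding 1. Tests used limma 3.58.1 under R 4.3.3 (intensity trend, two-sided, Benjamini-Hochberg, threshold 0.05) over all genes, and the fit was tested on simulated data. IN and IP of a pool are paired, as the series design text says, and pool was a block in IP against IN and in the interaction. The correlation of the deviations of the 2 libraries of a pool from their group means ran from 0.007 to 0.414. Shares were compared by exact permutation (256 sign flips of 8 pools, or 70 splits of 4 against 4) in Python 3.11.15 with numpy 2.4.6.

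All 8 members were named. From each related list the 2 largest and 2 smallest changes were named. Promoter windows were picked after seeing the values. Likeness was sought among genes with a mean scaled TPM of at least 5, naming 3 per member. Members, lists and tests were chosen with earlier results of these data known. All listed symbols were matched, Tafa4 as Fam19a4. Alternatives tried were other scalings, an added 0.1, no filter, other block settings and leaving out each pool. Scaling to nuclear protein-coding genes was chosen after seeing the data.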

Additional observations from a re-analysis of the deposited data

Results flagged for a closer look

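In 44 groups of 4 libraries (8 genes and 3 class shares in 4 groups), 2 had a library far from the other 3 by Dixon's 95% critical value for the gap to the nearest library over the range of the group, a level that chance passes in about 1 in 20 groups. Cacna1h in the IP of female pools was at 14.9 in pool 2, above 10.9 to 11.5 in the others (gap over range 0.855), in the library that also held the lowest share of nuclear protein-coding TPM of the IP libraries (44.9%). Cacna1d in the IN of female pools was at 2.95 in pool 2, below 3.50 to 3.55 in the others (gap over range 0.916).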

How the results depend on the processing

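In IP against IN, the pore genes that changed sign did so with deposited TPM and no scaling, where Cacna1g also no longer passed within either sex (-0.304 in females, -0.429 in males). For Cacna1a, Cacna1d and Cacna1h these were 2.02, 0.815 and 1.86 in both sexes, 1.87, 0.628 and 1.91 in females, and 2.17, 1.002 and 1.80 in males. On that scale 7 pore genes were higher and 1 lower in both sexes, and 7 higher and 0 lower in each sex. It moves the median of all genes. Of all genes tested, 15558 of 16099 passed in both sexes, 94.0% of them higher. In female pools 14992 of 16115 passed (95.1% of them higher) and in male pools 15427 of 16061 (94.7% of them higher). Scaled to nuclear protein-coding genes, 2 pore genes were higher in male pools. In that fit 10863 of 16061 genes tested passed, 33.3% of them higher. Leaving out each pool in turn kept the 4 higher and 4 lower calls in both sexes. Without male pool 4 there is no value for Cacna1g in male pools, where it fell under the filter. Without the replicate block these calls were again 4 and 4, and pairing by pool changed only the Cacna1a call in female and the Cacna1i call in male pools. Female and male pools share only a number, and with a replicate block by that number 0 pore genes passed in IN and 0 in IP. For class shares, the L-type difference was 0.305 points (adjusted p = 0.391, exact permutation) on log2 values, and the Cav2 difference was -5.36 points without Cacna1b. Unpaired, exact permutation of the 16 libraries gave class differences of 3.04, 4.29 and -7.33 points, all past 0.05. With 3 against 4 pools the smallest p is 0.0571, so leaving out a pool cannot test the sexes. TPM keep no depth, so no floor could be set for Cacna1g in IP.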
